A study of Mus musculus with 17 samples.

Results

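The nuclei described here are the 430 nuclei that carry the deposited label Oligodendrocytes and lie in deposited cluster 13, out of 284074 nuclei in all. They were chosen by these 2 deposited columns alone (the transferred cell type label and the cluster at resolution 0.4), with no gene level used directly. Of the other nuclei of cluster 13, 7336 carry the label Neurons, 12 Astrocytes and 4 Vascular cells, and 75282 nuclei in all carry the label Oligodendrocytes. The label matched the genes of these 430 nuclei only in part. Precursor genes such as Pdgfra stood as high as in the rest of cluster 13, and the genes of mature myelin summed below their level in microglia. In the label's direction, 15 genes of committed or newly formed oligodendrocytes summed 1.56-fold higher than in the Neurons-labelled nuclei, in 17 of 17 animals. The 430 nuclei are therefore called by label and cluster, and no cell type is given to them.

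The nuclei came from the frozen posterior brain of 17 female mice, 2.3 months old and all carrying a human transferrin receptor (TfR) knock-in on both alleles, controls included. By intravenous injection, 4 mice had received saline, 4 an unconjugated antisense oligonucleotide directed at Malat1 (Malat1 ASO, 2 mg per kg), 6 an anti-TfR antibody joined to such an oligonucleotide (anti-TfR:Malat1, 50 mg per kg) and 3 the oligonucleotide on a TfR-binding transport vehicle (OTV:Malat1, 50 mg per kg). Each mouse received 4 doses within 24 days, with harvest 72 hours after the final injection. Nuclei were sorted on the DNA dye DAPI and their RNA was counted as unique molecular identifiers (UMIs, counted molecules) on the 10x droplet platform.

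Oligodendrocytes arise from dividing precursor cells that carry the growth factor receptor Pdgfra and the proteoglycan Cspg4. On leaving the cycle, a precursor passes through a short committed stage, marked by the receptor Gpr17 and by Bcas1, Neu4 and Enpp6, in which it loses the precursor genes and gains the regulator Myrf. It then switches on the myelin genes, among them Mbp, Mog and Mobp. In the adult brain committed cells are rare beside both precursors and myelinating cells.

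Each animal gave 13841 to 18365 nuclei, of which 14 to 36 belonged to the 430, so that their summed RNA was 28332 to 110175 UMIs per animal. The 430 nuclei held 1034054 UMIs, with a median of 2227.5 UMIs and 1318.5 genes per nucleus and a middle range of 1785.75 to 2922.5 UMIs. The medians were 2040 UMIs in the Neurons-labelled nuclei of cluster 13, 1457 in the Oligodendrocytes-labelled nuclei of cluster 0 (37325 nuclei, the comparison for mature cells) and 1004 in microglia. A further comparison, the 1130 Oligodendrocytes-labelled nuclei of cluster 17, was chosen after the values were seen because they held the next highest Gpr17, and their median was 3271 UMIs. No barcode was shared between 2 of the 430 nuclei, and 24 of their barcodes (5.58%) also occurred in another animal, against 7.16% of all barcodes.

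Doublet calls were few in these nuclei. The authors' calls marked 3 of the 430 (0.698%, exact 95% binomial interval 0.144 to 2.03, counting error only), against 1.21% of the Neurons-labelled nuclei of cluster 13, 1.39% of those of cluster 0 and 16.8% of all nuclei. Scrublet, run here as a second caller, marked 1 of the 430 (0.233%) and 7.18% of all nuclei. In the Oligodendrocytes-labelled nuclei of cluster 17 the same callers marked 44.2% and 17.7%. Some values of that population are therefore given below also without the authors' doublets. Its list sums, its ranks and its Malat1 shares hold the doublets. The median score of the label transfer was 0.702 in the 430 nuclei, 0.836 in the Neurons-labelled nuclei and 0.904 in cluster 0, and 54 of the 430 had a score under 0.5.

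The 430 nuclei combined a summed level of precursor genes close to that of the rest of cluster 13 with higher levels of genes of the committed stage. Levels are given as CPM, the UMIs of a gene out of the population's UMIs, scaled to 1e6, summed over all animals, and they are compared only within a gene. Because the label and the cluster were both made from the genes of these nuclei, differences between populations are descriptions without a test. The number of animals in which the difference had the same direction is given in place of an error.

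Gpr17, a receptor that marks the committed stage, stood at 225 CPM in the 430 nuclei (233 UMIs), 59.9 in the Neurons-labelled nuclei of cluster 13, 2.27 in cluster 0 and 2.97 in microglia. Across the 17 animals it ranged from 106 through a median of 216 to 396 CPM in the 430 nuclei, and from 32.7 through 65.0 to 84.0 CPM in the Neurons-labelled nuclei. The lowest animal of the first thus lay above the highest of the second, and the level was 3.76-fold higher, in 17 of 17 animals. Among the 32 pairs of a label and a cluster with 50 or more nuclei, the 430 nuclei held the highest Gpr17 level. They made up 0.151% of all nuclei and 7.32% of all nuclei with a Gpr17 UMI.

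Bcas1, an early marker of cells about to myelinate (mouse build GRCm38, chromosome 2, 170346991 to 170427845, minus strand), stood at 1089 CPM against 508 in the Neurons-labelled nuclei, 2.15-fold higher and in 17 of 17 animals. Its range over animals was 676 to 2038 CPM with a median of 1131, and the Neurons-labelled nuclei reached at most 585 CPM. Cluster 0 held 904 CPM, and the 430 nuclei were above it in 13 of 17 animals, so Bcas1 separated them from the rest of cluster 13 more clearly than from mature oligodendrocytes. The antisense gene Bcas1os2 overlaps Bcas1 and differed by a like ratio (161 against 74.5 CPM). The sources used here do not state whether the counting used strand, so the reads of this pair, and of Gpr17 and its overlapping neighbour Lims2, cannot be told apart with certainty.

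Tnr, the matrix protein tenascin-R (chromosome 1, 159523769 to 159931729, plus strand), stood at 5452 CPM against 4130 in the Neurons-labelled nuclei, 1.32-fold higher in 17 of 17 animals. In cluster 0 it was 15.4 and in microglia 17.7 CPM. Across animals Tnr ranged from 4607 through 5541 to 6949 CPM, which is the narrowest relative spread of the 4 given markers.

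Enpp6, a choline phosphodiesterase of newly forming oligodendrocytes, was scarce. It gave 25 UMIs in all 430 nuclei (24.2 CPM) against 2.28 CPM in the Neurons-labelled nuclei and 173 in cluster 0, where it was 7.15-fold higher. The saline animals had 1, 6, 0 and 0 Enpp6 UMIs, the Malat1 ASO animals 0, 2, 3 and 1, the anti-TfR:Malat1 animals 3, 1, 2, 0, 2 and 0, and the OTV:Malat1 animals 1, 0 and 3. With 6 animals at 0 its level in single animals was at the edge of detection, and it was above the Neurons-labelled nuclei in 11 of 17 animals.

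**Figure D1:**
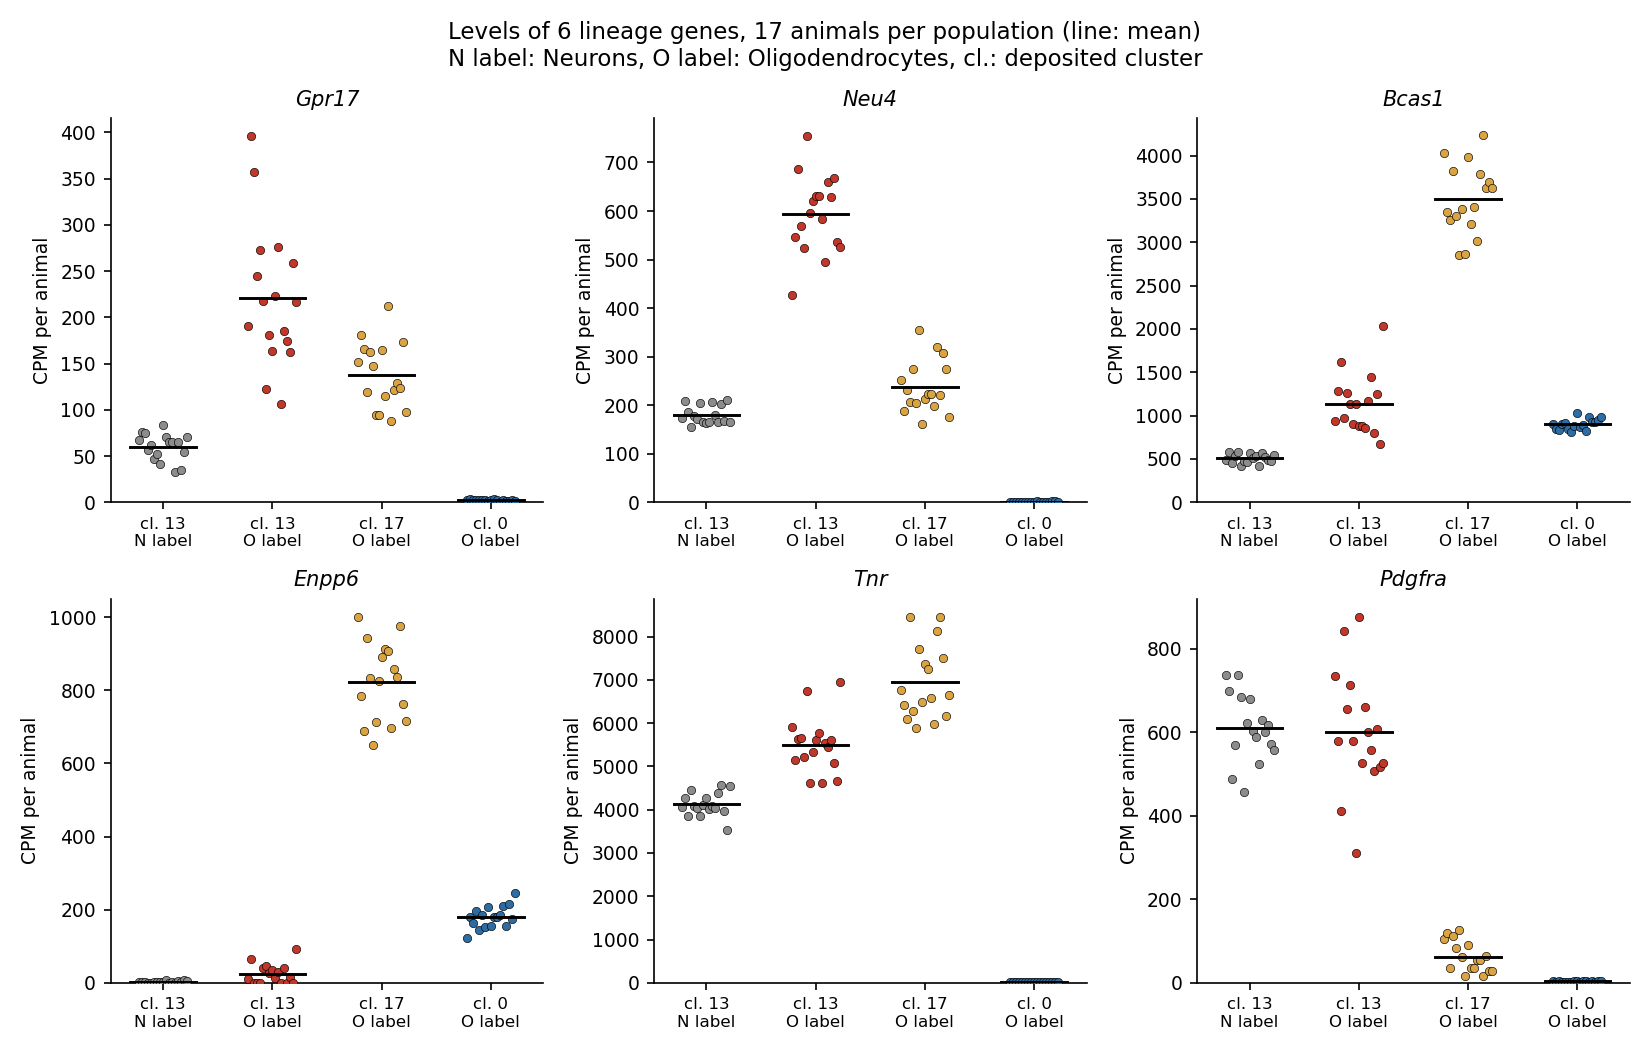
CPM of Gpr17, Neu4, Bcas1, Enpp6, Tnr and Pdgfra (linear axes from 0) in 4 populations, with 1 point for each of 17 animals and a line at the mean. The 430 nuclei (cl. 13, O label) were above the Neurons-labelled nuclei of the same cluster in Gpr17, Neu4, Bcas1 and Tnr in 17 of 17 animals, overlapped them in Pdgfra, and were far below cluster 17 in Enpp6.

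The other committed-stage genes varied in how far they went. Neu4, a sialidase (chromosome 1, 94020451 to 94028334, plus strand), stood at 584 CPM against 180 in the Neurons-labelled nuclei, 1.02 in cluster 0 and 244 in cluster 17, and the 430 nuclei held the highest level of the 32 pairs. Its range over animals was 427 to 754 CPM with a median of 595, wholly above the range of 155 to 210 CPM in the Neurons-labelled nuclei. Fyn, a kinase of myelinating cells, stood at 740 against 320 CPM (2.31-fold, 17 of 17 animals). Bmp4, a signalling protein made by committed cells, gave 34 UMIs (32.9 against 4.31 CPM, higher in 15 of 17 animals).

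Smaller ratios were seen for Itpr2, a calcium channel of the endoplasmic reticulum (746 against 482 CPM, 1.55-fold), for Tcf7l2, a Wnt pathway transcription factor (276 against 177 CPM, 1.56-fold), and for Tmem163, a zinc transporter (430 against 300 CPM, 1.43-fold), each in 17 of 17 animals. The transcription factor Sox4 was close to equal (65.8 against 60.5 CPM), the membrane protein Cemip2 was lower (6.77 against 16.5 CPM), and the calcium-sensing receptor Casr gave 0 UMIs in both. Summed over the 15 genes of the committed list, which includes the given markers, the level was 9811 CPM against 6305, 1.56-fold higher in 17 of 17 animals, and against 1513 in cluster 0. Assessed were genes with 10 or more UMIs in the 430 nuclei, or with a comparison CPM that would give 10 at their depth. Of the 14 genes of the list assessed, 13 were higher, 7 of them more than 2-fold, and 1 was more than 2-fold lower. The median log2 ratio was 0.96, against -0.00 over all 10162 assessed genes, of which 0.777% were more than 2-fold higher.

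Most of the precursor genes stood near the level of the rest of the cluster, and C1ql1 was higher. Pdgfra, the receptor for platelet-derived growth factor, stood at 621 CPM in the 430 nuclei and 616 in the Neurons-labelled nuclei, against 3.15 in cluster 0. Over the animals it ranged from 311 through 580 to 876 CPM, and the Neurons-labelled nuclei from 458 through 603 to 738 CPM, so the populations overlapped throughout. Cspg4, the NG2 proteoglycan, stood at 278 against 335 CPM, and Vcan, the proteoglycan versican, at 1471 against 1252. Ptprz1, a receptor phosphatase, and Lhfpl3, a membrane protein of precursors, stood at 2567 against 2776 and at 6850 against 7461 CPM. Sox6, a transcription factor of the precursor stage, stood at 2499 against 2119 CPM, higher in 17 of 17 animals. The secreted protein C1ql1 was 1.54-fold higher (180 against 117 CPM, 15 of 17 animals), a ratio like that of Itpr2 and Tcf7l2.

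Summed over the 10 precursor genes, the 430 nuclei held 22558 CPM and the Neurons-labelled nuclei 23075. The 430 nuclei were higher in 6 of 17 animals and in 5 of 10 genes. Cluster 0 held 414 CPM of this list and microglia 162, so the 430 nuclei stood far above the level that nuclei of another type showed.

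The myelin genes were nearly silent. Mog, a glycoprotein of the outer myelin surface, stood at 8.70 CPM in the 430 nuclei, 14.8 in the Neurons-labelled nuclei, 1360 in cluster 0 and 101 in microglia, which do not make it. Mobp, Mag and Mbp, further myelin proteins, stood at 10.6, 20.3 and 75.4 CPM, against 74.2, 94.9 and 306 in microglia and 1114, 873 and 4397 in cluster 0. Microglia are here all 8444 nuclei with that label, of which the authors' calls marked 285 as doublets. Their myelin list stood at 1263 CPM in the 8092 of cluster 11. It stood at 12470.5 CPM in the 352 of cluster 18, of which 80.1% were marked. The microglial values of single genes hold both, so they are not a clean background. The list sum of the 430 nuclei, 715 CPM, lay below both.

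Of the 18 genes of the myelin list, 0 were higher than in cluster 0, and the summed level was 715 CPM against 21924 in cluster 0, 598 in the Neurons-labelled nuclei and 2234 in microglia. Against the Neurons-labelled nuclei it was higher in 13 of 17 animals, with 7 of 15 assessed genes higher and a median log2 ratio of -0.05. St18, a transcription factor of mature oligodendrocytes, was the exception at 4.53-fold above the Neurons-labelled nuclei (86.1 against 19.0 CPM, 14 of 17 animals). Its level lay 48.8-fold below cluster 0. It lay below that of all Microglia-labelled nuclei (225 CPM) but above the 15.5 CPM of those in cluster 11. The Microglia-labelled nuclei of cluster 18, of which 80.1% were marked as doublets, held 2438 CPM. By nuclei, St18 was found in 9.07% of the 430 and in 5.33% of microglia, and in 3.49% and 3.53% when each nucleus was thinned to 500 UMIs. The microglial shares include the nuclei of cluster 18.

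**Figure D2:**
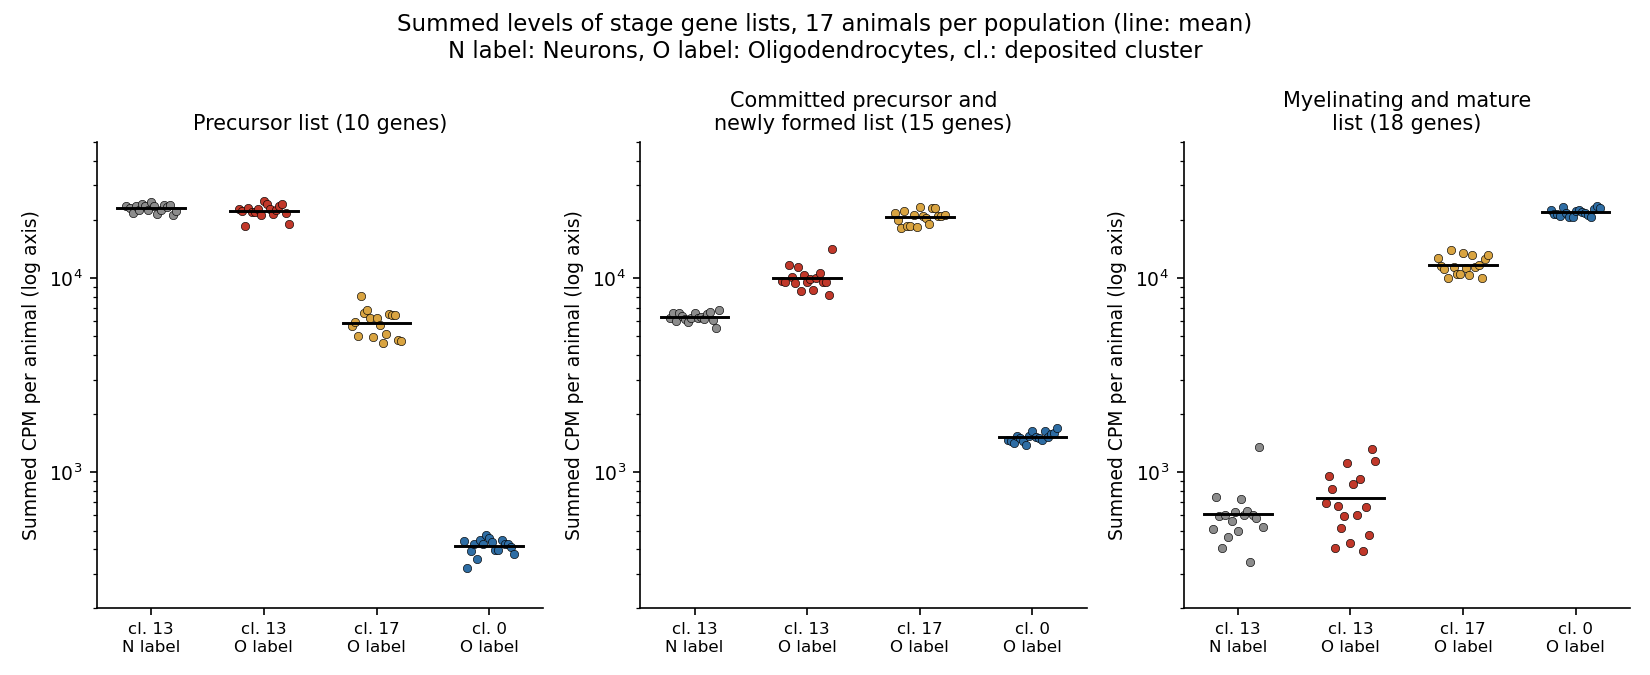
Summed CPM per animal (log axes) of the 10 precursor genes, the 15 committed-stage genes and the 18 myelin genes in 4 populations, with a line at the mean of 17 animals. The 430 nuclei lie level with the Neurons-labelled nuclei of cluster 13 in the precursor list, between those and cluster 17 in the committed list, and low in the myelin list, at 392 to 1312 CPM.

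Among the lineage's transcription regulators, Olig1, Olig2 and Sox10, which are on through the whole lineage, stood at 136, 126 and 384 CPM in the 430 nuclei and at 106, 109 and 343 CPM in the Neurons-labelled nuclei. Myrf, the factor that switches on myelin genes, was 2.93-fold higher (42.6 against 14.5 CPM, 15 of 17 animals) but 4.52-fold below cluster 0. Sox8 was 1.44-fold higher (15 of 17 animals). Zfp536 was level with the Neurons-labelled nuclei (255 against 266 CPM) and far below cluster 0 (2060 CPM).

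Transcripts of dividing cells were at the floor. The 8 cell cycle genes gave 3 UMIs in the 430 nuclei (2.90 CPM, exact Poisson 95% interval 0.598 to 8.48, counting error only), against 304 UMIs or 19.3 CPM (17.2 to 21.6) in the Neurons-labelled nuclei. Top2a, Cdk1, Ccnb1, Aurkb and Bub1 gave 0 of 1034054 UMIs, which allows up to 2.90 CPM for each, counted as 3 UMIs, and Top2a stood at 7.80 CPM in the Neurons-labelled nuclei. The 12 genes of cholesterol synthesis, the pathway that feeds myelin membrane, were level with the Neurons-labelled nuclei (244 against 235 CPM) and below cluster 0 (470 CPM).

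Genes of other cell types were low or level with the Neurons-labelled nuclei. The 11 neuron genes summed to 4898 CPM, below the 5643 of the Neurons-labelled nuclei in 15 of 17 animals, and above the 1766 CPM of microglia. Most of that sum was Rbfox1 and Nrg3, at 1932 and 1755 CPM, while the neuronal RNA Meg3 stood at 595 CPM, close to its 548 in microglia. The 7 astrocyte genes summed to 687 against 780 CPM. The 6 microglial genes summed to 64.8 CPM against 4822 in microglia, with Tmem119 at 0, and the 6 vascular genes to 6.77 CPM, with Cldn5, Slc6a13 and Pdgfrb at 0.

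Nucleus by nucleus, thinned to 500 UMIs each so that depth was equal, 10.0% of the 430 nuclei held a Gpr17 UMI (exact 95% interval 7.33 to 13.2), against 2.66% (2.30 to 3.05) of the Neurons-labelled nuclei and 0.189% of microglia. Without thinning the shares were 42.1%, 11.4% and 0.320%. In the Oligodendrocytes-labelled nuclei of cluster 17, with their doublets, the Gpr17 share was 7.96% after thinning (6.45 to 9.70) and 32.6% without. The thinned interval overlapped that of the 430 nuclei. Neu4 was found in 30.7% after thinning, against 8.48% of the Neurons-labelled nuclei, and Pdgfra in 27.2% against 26.0%. These intervals cover the counting of nuclei and not the spread between animals. All 430 nuclei exceeded 500 UMIs, and none was left out.

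In the full counts 7 of the 430 nuclei held all 4 given markers, 142 held 3, 208 held 2 and 73 held 1. The median depth fell in the same order, at 2921, 2406.5, 2121 and 1999 UMIs. Tnr was found in 100% of the 430 and 99.0% of the Neurons-labelled nuclei. Bcas1 was found in 73.3% and 57.1%, and Enpp6 in 3.95% and 0.477%. Pdgfra stood at 589 CPM in the 181 nuclei with a Gpr17 UMI and at 646 CPM in the 249 without one. With 233 Gpr17 UMIs over 430 nuclei, a nucleus that expresses Gpr17 can lack a UMI by sampling alone. The median depths were 2395 and 2075 UMIs. This split therefore cannot tell whether nuclei that express Gpr17 keep or lose Pdgfra. Seen from the other side, 1020 nuclei of cluster 13 held a Gpr17 UMI, and 17.7% of these carried the label Oligodendrocytes against 5.53% of the whole cluster, so most Gpr17-bearing nuclei of the cluster were labelled Neurons.

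Beyond the lists, few genes separated the 430 nuclei from the Neurons-labelled nuclei of their cluster. Of 3830 genes with 50 CPM or more in the higher population, 19 were more than 2-fold higher and 1 more than 2-fold lower, and the Spearman correlation of levels across genes was 0.960, a description over genes that are not independent. The highest ratio was that of 9530059O14Rik, a long intergenic noncoding RNA (chromosome 9, 122572499 to 122679596, plus strand), at 95.7 against 16.9 CPM (5.68-fold, 16 of 17 animals). Next came Bfsp2, a beaded filament protein best known from the eye lens (chromosome 9, 103424924 to 103480420, minus strand), at 115 against 21.2 CPM (5.42-fold, 17 of 17 animals). Bfsp2 ranged over animals from 42.8 through 103 to 229 CPM, above the 16.4 to 28.0 CPM of the Neurons-labelled nuclei without overlap.

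The rest of the 15 highest held the listed genes St18, Gpr17, Neu4, Fyn, Lims2 and Bcas1, together with 9630013A20Rik (2.85-fold, 17 of 17 animals), Cnksr3, a scaffold protein of kinase signalling (2.55-fold), the chromatin remodeller Chd3 (2.52-fold), the collagen chain Col9a3 (2.43-fold, 17 of 17 animals), Ccdc134, Bcas1os2 and Gm10863. The 2 leading genes stood higher still in cluster 17, at 2781 and 453 CPM. 9530059O14Rik was also higher in cluster 0 (160 CPM), and among the 32 pairs of label and cluster the 430 nuclei ranked 22 for it. They ranked 20 for St18, 11 for Enpp6 and 2 for Bfsp2. 9630013A20Rik is annotated as antisense to Pcdh17, so its reads share the limit on strand named above. The lowest ratio was that of the secreted protein Tafa4 (31.0 against 70.2 CPM, lower in 16 of 17 animals), followed by Cntnap2, Rbms1, Ebf4 and Zwint.

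**Figure D3:**
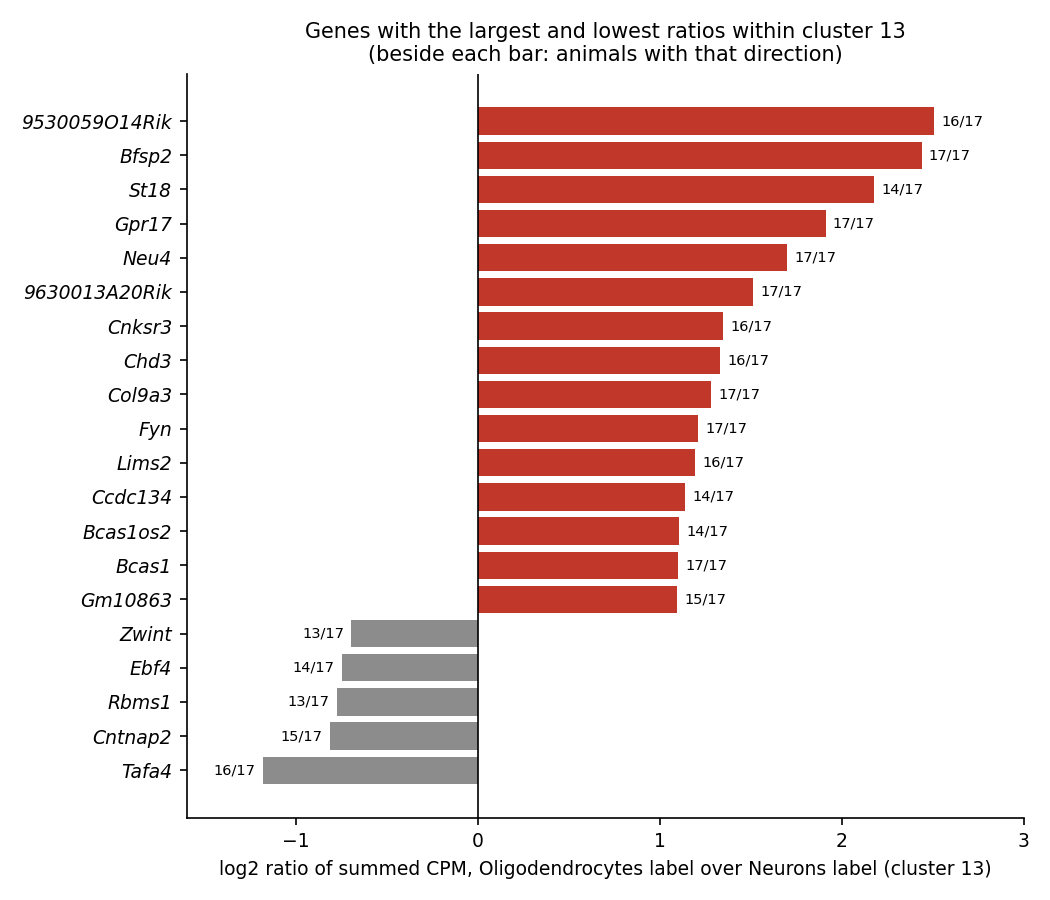
Log2 ratio of CPM of the Oligodendrocytes-labelled over the Neurons-labelled nuclei of cluster 13, for the 15 genes with the highest and the 5 with the lowest ratio among 3830 genes, with the number of animals of that direction beside each bar. The bars have no error bar. 9530059O14Rik, Bfsp2 and St18 lead, and Tafa4 is lowest.

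Against the Oligodendrocytes-labelled nuclei of cluster 0 the differences were many. Of 4580 genes with 50 CPM or more in the higher population, 1015 were more than 2-fold higher and 837 more than 2-fold lower in the 430 nuclei, with a Spearman correlation across genes of 0.247. Among the 15 highest were Neu4, Gucy2f, a guanylate cyclase (87.0 against 0.143 CPM), the transcription factor Prrx1 (190 CPM, 407-fold higher), the integrin Itga9 (749 against 2.08 CPM) and the sulfotransferase Chst11 (849 against 2.72 CPM). Each of these was carried by the Neurons-labelled nuclei of cluster 13 too, at 180, 90.5, 200, 551 and 911 CPM. The lowest was Prr5l, a regulator of the kinase complex mTORC2, at 4.84 against 3043 CPM.

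The Oligodendrocytes-labelled nuclei of cluster 17 held the highest summed level of the committed list among the 32 pairs (20679 CPM), with the 430 nuclei second. Bcas1 stood at 3520, Enpp6 at 829 and Fyn at 3187 CPM in cluster 17, above the 430 nuclei, where 3 of the 15 genes of the list were higher. These were Gpr17 (1.60-fold, 16 of 17 animals), Neu4 (2.40-fold, 17 of 17 animals) and Lims2 (105 against 104 CPM). All 10 precursor genes were higher in the 430 nuclei, and the myelin list was 16.4-fold lower. Without the authors' doublets, 631 nuclei of cluster 17 remained, with Gpr17 at 158, Neu4 at 256, Bcas1 at 3962, Enpp6 at 967, Fyn at 3806 and Pdgfra at 2.69 CPM.

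Within the 430 nuclei, the levels moved with the score of the label transfer. In the 54 nuclei with a score under 0.5, Gpr17 stood at 126, Bcas1 at 858 and Fyn at 417 CPM. In the 190 nuclei with scores from 0.5 to 0.75 the levels were 187, 786 and 500 CPM, and in the 186 with higher scores 293, 1467 and 1079 CPM. Enpp6 stood at 0, 17.4 and 38.1 CPM and Pdgfra at 669, 667 and 560 CPM in the same order. The score was computed by the authors from the same counts, so this describes what the label followed and is not an independent observation. Neuron genes summed to 5642, 5178 and 4398 CPM across the same bins.

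A few nuclei were closer to cluster 17. At the finer deposited resolution of 1, 420 of the 430 nuclei lay in fine cluster 13 and 10 in fine cluster 27, which mostly held nuclei of cluster 17. The 10 nuclei held Bcas1 at 3452, Enpp6 at 471 and Fyn at 4001 CPM, with Pdgfra and Cspg4 at 0, from 12746 UMIs in all. The 420 held 1059, 18.6 and 699 CPM, with Pdgfra at 629 and Cspg4 at 281. The 10 came from OTV:Malat1 replicate 3 (3 nuclei), Malat1 ASO replicate 4 (2) and anti-TfR:Malat1 replicates 3, 4 and 5 (2, 1 and 2). The 3 nuclei of OTV:Malat1 replicate 3 carried part of its high values: without them its Bcas1 was 1911 in place of 2038 CPM and its St18 341 in place of 618 CPM.

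The study asked how far each compound lowers Malat1, the nuclear long noncoding RNA that the oligonucleotide binds. In the 430 nuclei none of the compounds lowered it past the threshold. Malat1 took 6.63, 4.94, 4.98 and 3.86% of the UMIs in the saline animals, 5.62, 5.37, 6.60 and 3.94% in the Malat1 ASO animals, and 4.35, 5.07 and 3.62% in the OTV:Malat1 animals. The 6 anti-TfR:Malat1 animals ranged from 3.86 to 6.09%, with a mean of 4.98% ± 0.91 (SD, n = 6). Saline averaged 5.10% ± 1.14 (SD, n = 4), Malat1 ASO 5.39% ± 1.10 (SD, n = 4) and OTV:Malat1 4.35% ± 0.73 (SD, n = 3). All groups overlapped.

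In the edgeR quasi-likelihood fit over the UMIs summed per animal, Malat1 differed from saline by a log2 of -0.22 in OTV:Malat1 (SE 0.13, 95% interval -0.49 to 0.04, p 0.0999 before and 0.997 after adjustment). The log2 difference was -0.05 in anti-TfR:Malat1 (SE 0.11, interval -0.27 to 0.18, edgeR p 0.664 before and 0.987 after adjustment). It was 0.08 in Malat1 ASO (SE 0.12, interval -0.17 to 0.33, edgeR p 0.516 before and 0.996 after adjustment). Between the carriers, OTV:Malat1 minus anti-TfR:Malat1, it was -0.17 (SE 0.12, interval -0.42 to 0.07, edgeR p 0.165 before and 0.907 after adjustment). The edgeR adjustment ran over all genes tested, Malat1 among them, and so does not treat Malat1 as a single planned gene. The exact permutation test of Malat1 alone, on log2(CPM + 1), gave p 0.286 to 0.876 over the 4 comparisons (adjusted p 0.80 to 0.876). Within batches 2 to 4 the log2 Malat1 difference of OTV:Malat1 from anti-TfR:Malat1 was -0.28, -0.24 and -0.28, each OTV:Malat1 animal lying below every anti-TfR:Malat1 animal of its batch. The difference of OTV:Malat1 from saline was -0.19, 0.03 and -0.09 across those 3 batches. Anti-TfR:Malat1 differed from saline by -0.78, 0.09, 0.27 and 0.18 in batches 1 to 4, and Malat1 ASO by -0.24, 0.12, 0.41 and 0.03. With the batch as a block, edgeR gave -0.21 for OTV:Malat1 against saline (p 0.0499 before and 0.982 after adjustment) and -0.17 for OTV:Malat1 against anti-TfR:Malat1 (p 0.0699 before and 0.849 after adjustment). In the Oligodendrocytes-labelled nuclei of cluster 0 of the same animals the OTV:Malat1 change from saline was -3.09 (SE 0.20, interval -3.50 to -2.67, edgeR adjusted p 7.8e-09), outside the interval of the 430 nuclei. In the Neurons-labelled nuclei of cluster 13 it was -0.31 (SE 0.16, interval -0.63 to 0.01, edgeR p 0.0565 before and 0.995 after adjustment). With the batch as a block it was -0.25 there (interval -0.46 to -0.05, edgeR p 0.0176 before and 0.978 after adjustment), and -0.28 for OTV:Malat1 against anti-TfR:Malat1 (interval -0.47 to -0.10, edgeR p 0.0040 before and 0.852 after adjustment).

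The difference between populations was then tested within animals, as log2 Malat1 (CPM + 1) of the 430 nuclei minus that of the comparison nuclei. Against cluster 0 this was -0.997 ± 0.105 (SD, n = 4) for saline animals and 1.69 ± 0.323 (SD, n = 3) for OTV:Malat1 animals, a shift of 2.68 (exact two-sided permutation p 0.0571, the smallest that 3 animals against 4 allow, adjusted p 0.114 over 8 tests). The shift of OTV:Malat1 over anti-TfR:Malat1 was 2.14 (exact permutation p 0.0238, again the smallest possible, 0.0952 adjusted), and that of anti-TfR:Malat1 over saline 0.54 (exact permutation p 0.0095, again the smallest possible, 0.0762 adjusted). For Malat1 ASO the shift was 0.16 (exact p 0.0571, adjusted p 0.114), and no test of the 8 passed 0.05 after adjustment. In the 3 comparisons with the smallest possible p the groups did not overlap, while in Malat1 ASO 3 of 4 animals lay above every saline animal.

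Within the batches named in the deposited metadata the shift of OTV:Malat1 against saline was 2.51, 3.16 and 2.52 in batches 2 to 4, and batch 1 held no OTV:Malat1 animal. For anti-TfR:Malat1 it was 0.15, 0.69, 0.68 and 0.57 in batches 1 to 4, for Malat1 ASO -0.11, 0.31, 0.28 and 0.17, and for OTV:Malat1 against anti-TfR:Malat1 1.82, 2.48 and 1.94 in batches 2 to 4. Against the Neurons-labelled nuclei of cluster 13 the 4 shifts were 0.01, -0.02, 0.07 and 0.03 (exact p 0.571 to 0.971). The difference in Malat1 between the 430 nuclei and the Neurons-labelled nuclei thus showed no detected shift between treatment groups in the 4 comparisons. With 3 to 6 animals per group, this does not show that the 2 populations respond alike.

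Malat1 was also higher in the other population with committed-stage genes than in cluster 0 after OTV:Malat1. In the Oligodendrocytes-labelled nuclei of cluster 17 the saline animals had 8.60% ± 2.74 (SD, n = 4) of their UMIs from Malat1 and the OTV:Malat1 animals 6.86% ± 1.20 (SD, n = 3). The log2 change by edgeR was -0.36 (SE 0.22, 95% interval -0.80 to 0.09, p 0.114 before adjustment). Without the authors' doublets the change was -0.27. In cluster 0 the same shares were 10.1% ± 1.82 (SD, n = 4) and 1.35% ± 0.19 (SD, n = 3). The 430 nuclei differed from cluster 17 by shifts of 0.01 to 0.13 over the 4 comparisons (exact p 0.357 to 0.971, adjusted p 0.857 to 0.971 over 4 tests added after seeing the data). Without the authors' doublets the shifts against saline turned to -0.058 in OTV:Malat1, -0.085 in anti-TfR:Malat1 and -0.041 in Malat1 ASO, and that between the carriers was 0.027 (exact p 0.643 to 0.943).

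Tfrc, the mouse gene of the transferrin receptor, gave 20 UMIs in the 430 nuclei (19.3 CPM), against 14.3 CPM in the Neurons-labelled nuclei, 14.1 in cluster 17 and 11.7 in cluster 0. Neat1, the nuclear noncoding RNA next to Malat1, stood at 7.74 CPM in the 430 nuclei and 1169 CPM in cluster 0.

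**Figure D4:**
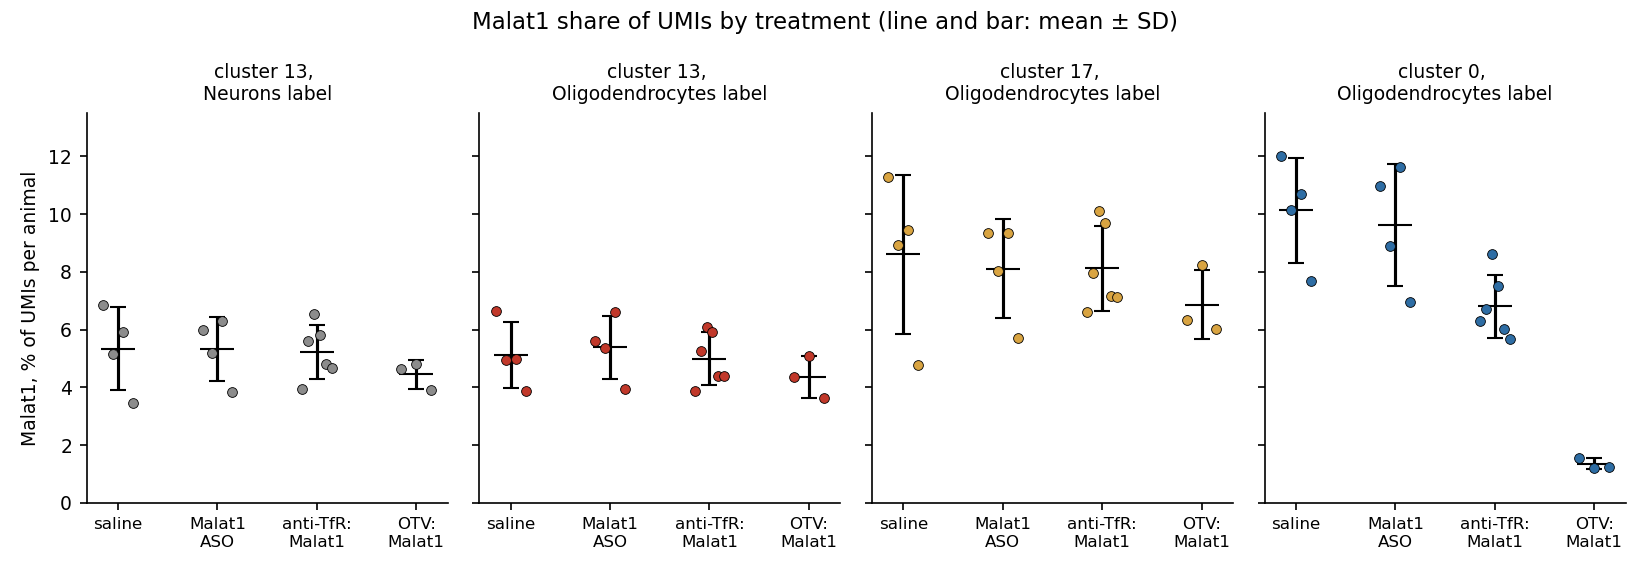
Malat1 as a percent of UMIs per animal (axis from 0) in 4 populations and 4 treatment groups, with the mean and SD of each group. The OTV:Malat1 animals lie at 1.22 to 1.57% in cluster 0 and at 3.62 to 5.07% in the 430 nuclei, where they overlap saline.

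No other gene changed past the threshold in the 430 nuclei. Of 1526 other genes tested by edgeR, 0 (0%) passed an adjusted p of 0.05 in OTV:Malat1, anti-TfR:Malat1 or Malat1 ASO against saline, or in OTV:Malat1 against anti-TfR:Malat1. At an unadjusted p under 0.05 there were 65, 40, 44 and 85 genes in the order OTV:Malat1, anti-TfR:Malat1, Malat1 ASO, OTV:Malat1 against anti-TfR:Malat1. With no change in any gene, a fraction of about 0.05 of the 1526 would fall there. DESeq2 also called 0, with 25, 17, 18 and 47 at an unadjusted p under 0.05. The lowest p in OTV:Malat1 was that of Stmn3, a neuronal microtubule protein (log2 1.41, SE 0.40, edgeR p 7.7e-04, adjusted p 0.997). All 3 comparisons with saline use the same control animals.

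Gpr17 in the saline animals stood at 191, 396, 357 and 244 CPM, in the Malat1 ASO animals at 273, 218, 122 and 181, and in the OTV:Malat1 animals at 163, 258 and 216. In the anti-TfR:Malat1 group the values were 164, 223, 277, 106, 186 and 175 CPM. The saline animals were high, but each treated group overlapped them. The edgeR log2 differences from saline were -0.58 in anti-TfR:Malat1 (SE 0.27, p 0.034 before and 0.987 after adjustment), -0.50 in Malat1 ASO and -0.48 in OTV:Malat1, and 0.11 for OTV:Malat1 against anti-TfR:Malat1.

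All 10 precursor genes could be tested, and 0 passed in any comparison, with median log2 differences of -0.01 in OTV:Malat1, 0.06 in anti-TfR:Malat1 and 0.02 in Malat1 ASO against saline. Of the 15 committed-stage genes 8 had enough UMIs to test, and 0 passed, with medians of 0.12, -0.02 and -0.06 in the same order. The medians over all genes tested were 0.00. OTV:Malat1 against anti-TfR:Malat1 gave medians of -0.07 for the precursor list and 0.17 for the committed list.

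Of the 18 myelin genes 2 could be tested, among them St18, and 0 passed. In OTV:Malat1 against anti-TfR:Malat1 both had an unadjusted edgeR p under 0.05. St18 stood at 29.7, 19.9 and 618 CPM in the OTV:Malat1 animals, and at 46.7, 26.3, 0, 106, 61.9 and 122 CPM in the anti-TfR:Malat1 animals. Only OTV:Malat1 replicate 3 was high, the animal with 3 nuclei in fine cluster 27, and the groups overlapped. The edgeR log2 difference was 1.67 (SE 0.75, p 0.030 before and 0.821 after adjustment), and against saline it was 0.80 (SE 0.73, adjusted p 0.997).

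As a share of all nuclei of an animal, the 430 nuclei averaged 0.166% ± 0.064 (SD, n = 4) with saline and 0.158% ± 0.042 (SD, n = 4) with Malat1 ASO. With anti-TfR:Malat1 the share was 0.149% ± 0.049 (SD, n = 6), and with OTV:Malat1 0.138% ± 0.030 (SD, n = 3). By animal they numbered 36, 34, 18 and 19 in saline, 33, 23, 27 and 20 in Malat1 ASO, 31, 29, 31, 14, 22 and 21 in anti-TfR:Malat1, and 30, 22 and 20 in OTV:Malat1. None of the 4 differences exceeded the spread between animals (exact two-sided permutation p 0.457 to 0.914, adjusted p 0.914). The share differed between the deposited batches, at 0.219 to 0.238% in the 3 animals of batch 1, 0.138 to 0.199% in the 4 of batch 2, 0.0816 to 0.172% in the 5 of batch 3 and 0.121 to 0.126% in the 5 of batch 4. Batch 1 lay above the others, while batches 2 and 3 overlapped and the range of batch 3 held that of batch 4. The meaning of the batch is not stated in the sources used here, and batch 1 held no OTV:Malat1 animal. Within batches 2 to 4 the share with OTV:Malat1 differed from that with saline by -0.027, 0.017 and -0.0025 percentage points. Their mean was -0.0039 points (exact permutation p 0.75), against -0.028 points without the batches.

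**Figure D5:**
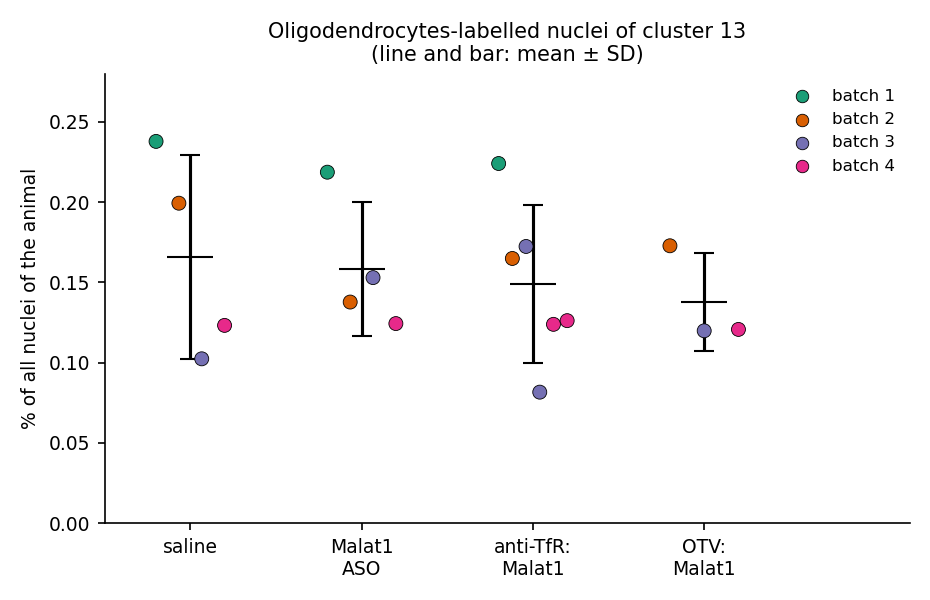
The 430 nuclei as a percent of all nuclei of each animal (axis from 0), by treatment group, with the mean and SD of each group and points coloured by deposited batch. The animals of batch 1 are the highest in each of the 3 groups that hold one, and the groups overlap.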

How the data were processed

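Nuclear RNA of 17 animals was counted in single nuclei. The authors deposited whole-number UMI counts for 26131 genes and 284074 nuclei, and metadata with labels, clusters, doublet calls and the batch, per the file headers. The label transfer's prediction score is a fraction that the authors computed and deposited. Cell Ranger 6.0.1, Seurat 4 and build mm10 are named in the submitters' processing notes. The label reference, the doublet caller, strand use and the meaning of the batch are not given in the sources used here. Of the metadata columns, 8 were not used.

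Counts were summed per animal over the 430 nuclei and each comparison population. Genes kept by filterByExpr were scaled by TMM and fitted over all 17 animals, each with 10 or more of the nuclei, with edgeR 4.0.16 (glmQLFit, glmQLFTest) in R 4.3.3 and Benjamini-Hochberg adjustment at 0.05. Malat1 was left out of the counts of called genes but was part of the adjustment over all genes tested. For single values, animals were exchanged between groups in an exact two-sided permutation test (scipy 1.17.1), the smaller tail counting for both sides, which sets the smallest p named as possible. P-values rest on separate animals. Sample number and deposited batch coincided in the 4 saline, the 4 Malat1 ASO and 3 of the 6 anti-TfR:Malat1 animals, and in 0 of the OTV:Malat1 animals. Correlations of same-numbered animals ranged from -0.07 to 0.09, and of animals of 1 batch from -0.06 to 0.12. Replicate libraries differed by more than sampling noise (largest chi-square p 1.0e-08). Scrublet (scanpy 1.11.5) ran per animal with an expected rate of 0.08. All doublets were kept. Ratios were assessed for genes with 10 or more UMIs in the 430 nuclei, or with a comparison CPM that would give 10 at their depth. Gene positions come from GENCODE M21 (GRCm38), which held 25511 of the gene names.

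Named were Malat1, Neat1, Tfrc, the given markers, the fixed lists (given markers, precursor, committed, myelin, regulators, cell cycle, cholesterol, neuron, astrocyte, microglia, vascular), up to 3 genes each way past the threshold, and the 15 highest and 5 lowest ratios against each of the 2 compared populations at 50 CPM or more. The nuclei and lists were chosen with earlier results of these data known. Stmn3 and the cluster 17 comparison were chosen after their values were seen. Alternatives were DESeq2 1.42.0, RLE factors, Malat1 out of the totals, no filter, other pseudocounts, animals, nuclei, denominators, blocks and doublet filters, and each animal left out. The scripts were tested on simulated data.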

Additional observations from a re-analysis of the deposited data

Results flagged for a closer look

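Within-group flags were made for a sample whose gap to its nearest neighbour was large for the range of its group. Of 27 groups checked, 3 had such a sample, where chance flags about 1 in 20. The OTV:Malat1 group (n = 3) was too small for this check and was left out. The log2 Malat1 level of the 430 nuclei minus that of the Neurons-labelled nuclei of cluster 13 was lowest in Malat1 ASO replicate 1, at -0.087 against 0.044 in the next animal. Enpp6 was highest in saline replicate 2, at 64.2 CPM from 6 UMIs, against 9.08 CPM in the next. Tnr was lowest in anti-TfR:Malat1 replicate 3, at 4627 CPM against 5448.

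The difference in log2 Malat1 between the 430 nuclei and the Oligodendrocytes-labelled nuclei of cluster 0 differed between treatment groups before adjustment. Set against saline, anti-TfR:Malat1 was higher by 0.54, with 6 of 6 animals above every saline animal (p 0.0095 by exact permutation, 0.0762 adjusted). Set against anti-TfR:Malat1, the 3 animals given OTV:Malat1 were all higher, on average by 2.14 (p 0.0238 by exact permutation, 0.0952 adjusted). Neither passed after adjustment over 8 tests.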

How the results depend on the processing

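The 0 called genes stayed 0 in the 4 comparisons under all 12 alternatives and every animal left out. Requiring 5 or more of the nuclei left out no animal, so that alternative repeats the main fit. The filters on the authors' doublets, on Scrublet doublets and on nuclei under 1000 UMIs left out only 3, 1 and 4 of the 430. Adjusted over all genes tested, Malat1 in the 430 nuclei passed in no alternative. Its log2 change in OTV:Malat1 against saline ranged from -0.40 (animals with 20 or more of the nuclei, p 0.0054 before and 0.867 after adjustment in edgeR) to -0.21, and from -0.36 to -0.06 with an animal left out. Requiring 20 or more of the nuclei left out anti-TfR:Malat1 replicate 4 (14 nuclei) and saline replicates 3 and 4 (18 and 19). Those saline animals were the only ones of batches 3 and 4, and saline replicate 4 had the lowest saline Malat1 share (3.86%). Signs near 0 turned. With the replicate block anti-TfR:Malat1 gave 0.062, and -0.15 to 0.11 with an animal left out, but -0.27 with 20 or more nuclei (p 0.035 before and 0.999 after adjustment in edgeR). Malat1 ASO gave -0.10 with 20 or more nuclei and -0.041 to 0.24 with an animal left out. OTV:Malat1 against anti-TfR:Malat1 gave -0.35 with the replicate block (p 0.025 before and 0.935 after adjustment in edgeR) and -0.32 (without OTV:Malat1 replicate 2, p 0.020 before and 0.891 after adjustment) to -0.08 with an animal left out. The sample number is also the deposited batch in saline, Malat1 ASO and 3 of 6 anti-TfR:Malat1 animals, but in no OTV:Malat1 animal. Relative to the Neurons-labelled nuclei, OTV:Malat1 gave -0.0082 without the authors' doublets, and leaving out an animal gave -0.062 to 0.076 in OTV:Malat1, -0.090 to 0.047 in anti-TfR:Malat1, -0.0023 to 0.14 in Malat1 ASO and -0.029 to 0.060 between the carriers. Relative to cluster 0, the anti-TfR:Malat1 shift was 0.52 with the replicate block (exact p 0.125), 0.52 within batches (exact p 0.0556) and 0.47 with 20 or more nuclei (exact p 0.0952), and 0.51 to 0.59 with an animal left out. The carriers differed there by 2.20 with the replicate block (exact p 0.25), 2.08 within batches (exact p 0.111), and 1.96 to 2.25 with an animal left out (exact p 0.0714 without any 1 OTV:Malat1 animal). These designs have fewer regroupings and so a larger smallest p. Relative to cluster 17, the shifts without the authors' doublets were -0.058 in OTV:Malat1, -0.085 in anti-TfR:Malat1 and -0.041 in Malat1 ASO, and ranged with an animal left out over -0.018 to 0.19, -0.063 to 0.14 (exact p 0.0476 without saline replicate 4), 0.055 to 0.26 and, between the carriers, -0.012 to 0.083. The share as a percent of the Oligodendrocytes label differed from saline by 0.011 points in anti-TfR:Malat1 and 0.033 in Malat1 ASO. The share of all nuclei, with an animal left out, differed from saline by -0.038 to 0.0072 and -0.028 to 0.017 in those groups and by -0.049 to -0.0039 in OTV:Malat1, and by -0.029 to 0.0040 between the carriers. Thinned to 1000 UMIs, Gpr17 was found in 20.4%, Bcas1 in 53.5%, Tnr in 98.6% and Pdgfra in 44.8% of the nuclei kept. The cause of these moves was not tested. Each animal gave 14 to 36 of the nuclei, and genes below the edgeR filter could not be tested. The number of animals sets the smallest exact p.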
